A study of Mus musculus with 2 samples.

Results

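Levels of 7 genes, the ligands Nrtn and Ptn, the receptors Ntrk2 and Ptprz1, the vesicle protein gene Sv2b, the urea transporter gene Slc14a1 and the matrix gene Smoc2, were read in cells of the mouse cervix by layer of the epithelium. They are 7 of 31053 genes in the deposited tables and were chosen by their levels in basal cells and the difference of those levels between these 2 libraries, then taken by symbol. Both quantities are therefore given as a description. The control library came from ovariectomised female C57BL6/129 mice, 7 to 8 weeks old, that recovered for 2 weeks from surgery and stayed untreated over the 15 days of the experiment. The progesterone library came from mice of the same strain and age, also ovariectomised, that had estradiol (E2) at 100 µg per day in corn oil for 2 days followed by a progesterone pellet of 25 mg with a release time of 21 days, at an estimated 1 mg each day. Cervix cells were released with a cold protease and read as 10x Genomics 3′ libraries, and each library pooled 9 mice, so a group has 1 value, no test between groups was possible, and E2 priming, injection, pellet and progesterone cannot be told apart from one another or from the library. Intervals are 95% intervals for counting error only, and n is 1 library throughout.

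Neurturin, the product of Nrtn, belongs to the GDNF family of ligands and signals to neurons through the co-receptor GFRA2 and the kinase RET. Pleiotrophin, from Ptn, is a heparin-binding growth factor, and its main neural receptor is the phosphatase encoded by Ptprz1. Ntrk2 encodes TrkB, the receptor of BDNF and neurotrophin-4, Sv2b a glycoprotein of synaptic vesicles, Slc14a1 the urea transporter UT-B, and Smoc2 a secreted protein related to SPARC. Stratified epithelium renews itself from basal cells, which carry Krt5 and Krt14, sit on the basement membrane and are contacted by sensory nerve endings, while their daughters rise and switch to suprabasal keratins. The luminal cells of the cervical canal carry Krt8 and Krt18 and form the mucus-secreting lining.

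The control library held 5368 cell barcodes and 21658684 UMIs (unique molecular identifiers, 1 per captured RNA molecule), and the progesterone library 10853 barcodes and 44811069 UMIs. After filtering, 4579 and 8541 cells were analysed. The 2 libraries shared 19 barcode sequences. Cells with at least 5 UMIs of Krt5 and Krt14 together, called keratinocytes here, numbered 3298 (72.0%) in the control and 5766 (67.5%) in the progesterone library. They were split by the share of suprabasal UMIs (Krt1, Krt10, Krt13, Krt4, Krtdap and Sbsn) among these and the Krt5 and Krt14 UMIs, at under 5% for basal and at 20% or more for suprabasal cells. That gave 1455 and 3248 basal, 1036 and 1152 intermediate and 727 and 910 suprabasal cells, beside 210 and 1680 luminal cells in which Krt8 and Krt18 UMIs reached 5 and outnumbered those of Krt5 and Krt14, of which 80 and 456 also counted as keratinocytes. Median depth ran from 4195 to 5999 UMIs per cell over the 3 squamous layers and was 4001 and 5344 in luminal cells. These limits were set after the cells had been seen, and 285 and 405 cells had a share of 4 to 6%, near the lower limit.

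All 8 basal markers were detected in the basal cells of both libraries. Col17a1, a hemidesmosome collagen that took no part in the split, was at 293 UMIs per 1000000 UMIs of the group (CPM) in control basal cells and 18.9 CPM in control suprabasal cells. In the progesterone library it was at 337 and 149 CPM. Suprabasal cells of the progesterone library thus kept more of a basal gene than those of the control, and the part of this in the suprabasal values below was not tested. Krt14, which enters the share that splits the layers, was itself at 23028 CPM in control and 6547 CPM in progesterone basal cells, so the same share is not the same amount of suprabasal RNA in both.

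Promoter sequences are shown for the 3 genes that fell most steadily from basal to suprabasal cells in both libraries and that have an entry in the table used, Nrtn, Ptn and Ptprz1. Each is the 250 bases before the RefSeq start site (GRCm38.p6), 5′ to 3′ on the gene's own strand, in lower case with motif matches in capitals. The Nrtn window is chr17:56757549-56757798 on the minus strand, the Ptn window chr6:36810180-36810429 on the minus strand and the Ptprz1 window chr6:22875252-22875501 on the plus strand.
Nrtn: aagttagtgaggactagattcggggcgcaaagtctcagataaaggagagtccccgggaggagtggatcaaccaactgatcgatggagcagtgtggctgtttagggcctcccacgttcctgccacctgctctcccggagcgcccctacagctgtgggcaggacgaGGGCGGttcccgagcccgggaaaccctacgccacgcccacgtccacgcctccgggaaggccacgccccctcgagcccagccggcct
Ptn: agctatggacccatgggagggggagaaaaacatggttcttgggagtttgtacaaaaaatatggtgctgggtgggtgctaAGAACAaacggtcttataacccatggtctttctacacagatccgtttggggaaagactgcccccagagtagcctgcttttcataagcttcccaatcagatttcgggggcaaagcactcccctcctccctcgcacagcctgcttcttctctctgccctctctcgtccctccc
Ptprz1: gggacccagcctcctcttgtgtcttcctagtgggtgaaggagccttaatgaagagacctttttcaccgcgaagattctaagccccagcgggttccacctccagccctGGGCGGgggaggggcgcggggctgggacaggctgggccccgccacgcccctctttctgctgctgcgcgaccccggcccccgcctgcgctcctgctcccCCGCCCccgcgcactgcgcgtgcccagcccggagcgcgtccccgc
The capitals mark GGGCGG, the GC box, on either strand in Nrtn and Ptprz1, and AGAACA, a half-site that progesterone and glucocorticoid receptors can bind, in Ptn. The Nrtn window held 1 GC box and the Ptprz1 window 2, at 64.8% and 71.6% G and C, whereas the Ptn window held none, at 52.0% G and C. GGGCGG on either strand is in 32.7% of all 32851 windows of this length in the table. The Ptn window held 1 half-site, 171 bases before the start, and AGAACA on either strand is in 16.1% of all windows. Of the 4 windows listed for Sv2b, 2 held that half-site, and the single Ntrk2 window held none. The full inverted repeat of the progesterone and glucocorticoid receptors (0.387% of windows), the estrogen response element (0.0639%) and the AP-1 motif TGANTCA (6.75%) were in none of the windows of these 5 genes. A match is only a match of letters.

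In GENCODE M21 (GRCm38) the protein-coding genes Nrtn (chr17:56751325-56757530, minus strand), Ptn (chr6:36714929-36810220, minus) and Ptprz1 (chr6:22875502-23052916, plus) overlap no other gene. Sv2b (chr7:75114894-75309262, minus) overlaps 2 genes and Smoc2 (chr17:14279506-14404790, plus) 1, all on the opposite strand.

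Nrtn, the GDNF-family ligand, was read at 148 CPM (139 to 157) in control basal cells and at 407 CPM (396.5 to 417) in progesterone basal cells. It dropped with each layer, to 54.3 and 25.6 CPM in intermediate and suprabasal cells of the control and to 218 and 106 CPM in those of the progesterone library. Luminal cells held 30.2 CPM in the control and 53.25 CPM with progesterone. The order basal, intermediate, suprabasal was the same in both libraries with intervals that did not touch, and the control suprabasal and luminal intervals overlapped. The progesterone over control ratio was 2.751 (2.575 to 2.943) in basal, 4.02 (3.56 to 4.54) in intermediate and 4.15 (3.39 to 5.12) in suprabasal cells. The basal over suprabasal log2 ratio with progesterone was 1.94, and 2.88 when layers were clusters of cells. Basal cells gave 64.7% of all Nrtn UMIs of the control library and 70.6% of those of the progesterone library.

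After each cell was thinned to 2000 UMIs, 21.6% of 1127 control basal cells and 51.55% of 2873 progesterone basal cells held an Nrtn UMI (32.7% and 70.6% unthinned). The same share was 1 of 80 macrophages with progesterone (1.25%, exact binomial interval 0.0316 to 6.77%) and 0 of 41 in the control, where the interval reaches 8.60%. Macrophages are not expected to make the gene, and their share serves as a reading of the level that free RNA can give. Their unthinned median depth was 1219 UMIs against 4347 in basal cells. Neutrophils, also outside the epithelium, held 10 Nrtn UMIs in each library, at 40.8 CPM in the control and 29.5 CPM with progesterone. Control neutrophils also held 20.4 CPM of Ptn and 24.5 CPM of Ptprz1, from 5 and 6 UMIs. Control suprabasal cells were not above these, at 25.6, 17.6 and 21.8 CPM of Nrtn, Ptn and Ptprz1. The part of free RNA in the control suprabasal and luminal levels was not tested. Thinning left out 328 and 375 shallower basal cells.

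Ptn, the other ligand, was at 242 CPM (231 to 254) in control and 305 CPM (296 to 314) in progesterone basal cells, a ratio of 1.26 (1.19 to 1.33). Intermediate cells held 82.4 and 183 CPM and suprabasal cells 17.6 and 83.5 CPM, so the ratio grew to 2.22 (2.00 to 2.47) and 4.745 (3.729 to 6.105). In luminal cells the direction was the opposite, with 49.6 CPM in the control, from 46 UMIs, and 13.45 CPM with progesterone, from 125 UMIs, a ratio of 0.271 (0.192 to 0.389). The control value comes from 15 of 210 luminal cells with a Ptn UMI, and in those 210 cells the basal marker list was at 2593 CPM, the suprabasal list at 4068 CPM and the neutrophil list at 9333 CPM, against 1359, 1446 and 553.5 CPM with progesterone. S100a9 alone gave 5120 of the 8659 control UMIs of the neutrophil list. The part of these luminal cells and marker lists in the luminal ratio was not tested. The fall from basal to suprabasal cells was accordingly steeper in the control (13.8-fold, 10.98 to 17.48) than with progesterone (3.65-fold, 3.32 to 4.03). How far apart these are depends on the layers, since the control log2 ratio went from 3.78 to 2.72 with layers by suprabasal UMIs per 10000, and the progesterone one from 1.87 to 2.66 with clusters of cells. Under each of these alternatives the control ratio stayed above the progesterone ratio.

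Ptn was higher in basal cells that carried cycling markers, in both libraries. Among control basal cells, the 392 with at least 2 UMIs of the cycling markers (Mki67, Top2a and 6 others) had 2.19-fold (1.97 to 2.44) the Ptn of the 921 with none, where 5.32% of genes were called higher, and in the progesterone library the factor was 1.85 (1.70 to 2.00) over 225 and 2778 cells. The summed cycling markers were at 870.5 CPM in control and 269 CPM in progesterone basal cells. Restricted to basal cells with no cycling UMI, the ratio of Ptn between the libraries was 1.76 (1.61 to 1.93).

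Ntrk2, the TrkB receptor gene, was at 19.1 CPM (15.97 to 22.64) in control and 113.5 CPM (108 to 119) in progesterone basal cells, 5.95-fold (4.98 to 7.15) higher. In the control it was at 18.3 CPM in intermediate, 13.1 CPM in suprabasal and 6.47 CPM in luminal cells, so basal cells held 1.45-fold (1.06 to 2.01) the suprabasal and 2.95-fold (1.32 to 8.19) the luminal level. With progesterone the order was another: the intermediate, suprabasal and luminal cells held 130.5, 145 and 113 CPM, and basal over suprabasal was 0.782 (0.718 to 0.852). The ratio between the libraries was 7.13 (5.85 to 8.75) in intermediate, 11.05 (8.477 to 14.65) in suprabasal and 17.4 (7.98 to 47.6) in luminal cells, the last from 6 control UMIs. Fibroblasts, a stromal cell type, held it in both libraries, at 229 CPM (128 to 378) in 52 control cells and 143.5 CPM (103 to 195) in 95 progesterone cells, intervals that overlap.

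Ntrk2 lies at chr13:58806569-59133970 on the plus strand in GENCODE M21 (GRCm38), with 7 protein-coding transcripts that have 6 different 3′ ends, and 1 gene on the same strand overlaps it. A 3′ count per gene does not separate full-length TrkB from the forms that lack the kinase.

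Ptprz1, which encodes the pleiotrophin receptor, followed the basal layer. Its level was 74.05 CPM (67.8 to 80.8) in control and 157 CPM (151 to 164) in progesterone basal cells, falling to 21.8 and 20.1 CPM in suprabasal cells and to 1 and 19 UMIs in all luminal cells (1.08 and 2.04 CPM). Basal cells exceeded suprabasal cells 3.39-fold (2.73 to 4.26) in the control and 7.83-fold (6.46 to 9.57) with progesterone. The ratio between the libraries was 2.12 (1.93 to 2.34) in basal, 1.69 (1.45 to 1.97) in intermediate and 0.9203 (0.6941 to 1.222) in suprabasal cells. Its basal ratio passed below 2 in cells with no cycling UMI (1.945, 1.718 to 2.209).

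Sv2b, the vesicle glycoprotein gene, was close to the limit of detection without hormone, with 20 UMIs in 1455 control basal cells (2.89 CPM, 1.77 to 4.47), 8 in intermediate, 0 in suprabasal and 1 in luminal cells. With progesterone, basal cells gave 1270 UMIs (84.7 CPM, 80.1 to 89.5), intermediate cells 68.45 CPM, suprabasal cells 46.6 CPM and luminal cells 50.8 CPM. The basal ratio was 29.3 (18.9 to 48.1), the suprabasal level was at least 69.8-fold higher against a floor of 3 UMIs in the control layer, and the luminal ratio was 47.1 with an interval from 8.41 to 1865 that rests on 1 control UMI. Within the progesterone library basal exceeded suprabasal cells 1.82-fold (1.59 to 2.09), and Sv2b UMIs were read in every epithelial layer.

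Slc14a1, the urea transporter gene, was not a basal gene in either library. In the control it was at 5.06 CPM (35 UMIs) in basal and 7.79 CPM (35 UMIs) in suprabasal cells against 48.5 CPM (45 UMIs) in luminal cells, and basal over luminal was 0.104 (0.0651 to 0.166). The control basal and suprabasal levels were not distinguishable, at a ratio of 0.650 (0.395 to 1.07). With progesterone it was at 56.0 CPM in basal, 80.3 CPM in intermediate, 82.7 CPM in suprabasal and 80.0 CPM in luminal cells. The 3 squamous layers were 11.06-fold (7.886 to 15.98), 15.15-fold (10.64 to 22.26) and 10.6-fold (7.52 to 15.4) higher than in the control, and luminal cells 1.65-fold (1.22 to 2.28). The basal log2 ratio, 3.47, rests on 35 control UMIs and was 2.54 as a mean over cells, 4.57 with a gate of 20 keratin UMIs and 4.14 with clusters of cells. Basal cells that also had at least 5 UMIs of the luminal keratins Krt8 and Krt18 held more of it than other basal cells, 10.4-fold (4.45 to 22.4) in the control, from 10 UMIs in 46 cells where 2.77% of genes were called higher, and 1.90-fold (1.64 to 2.20) in 506 progesterone cells. The luminal marker list was at 660 CPM in control and 1205 CPM in progesterone basal cells, and its part in the Slc14a1 levels was not tested. When the layers were taken from clusters of cells in place of the UMI limits, the log2 ratio of basal over suprabasal cells in the progesterone library was 0.96, the opposite direction. The clusters named suprabasal held 1328 control and 377 progesterone cells, against 727 and 910 by the UMI limits. A cluster with 1022 progesterone cells, closest to the suprabasal markers, was left unnamed and out of the layers.

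Smoc2, which encodes the SPARC-related matrix protein, had 12 UMIs in control basal cells (1.735 CPM, 0.897 to 3.03) and 602 in progesterone basal cells (40.2 CPM, 37.0 to 43.5), a ratio of 23.1 (13.15 to 45.03). With progesterone it was held tightly to the base, at 12.5 CPM in intermediate cells, 7 UMIs in suprabasal and 4 in luminal cells. Basal over suprabasal was 31.1 (15.0 to 77.8) and basal over luminal 93.3 (36.3 to 344). In the control, with 4 intermediate UMIs and 1 each in suprabasal and luminal cells, basal over suprabasal was 7.795 with an interval from 1.153 to 333.2 and basal over luminal 1.61 (0.238 to 68.8), both under the 20 UMIs that a call needed. Fibroblasts carried Smoc2 in both libraries, with 5 UMIs in the control and 15 with progesterone (76.4 and 52.5 CPM, overlapping intervals).

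**Figure D1:**
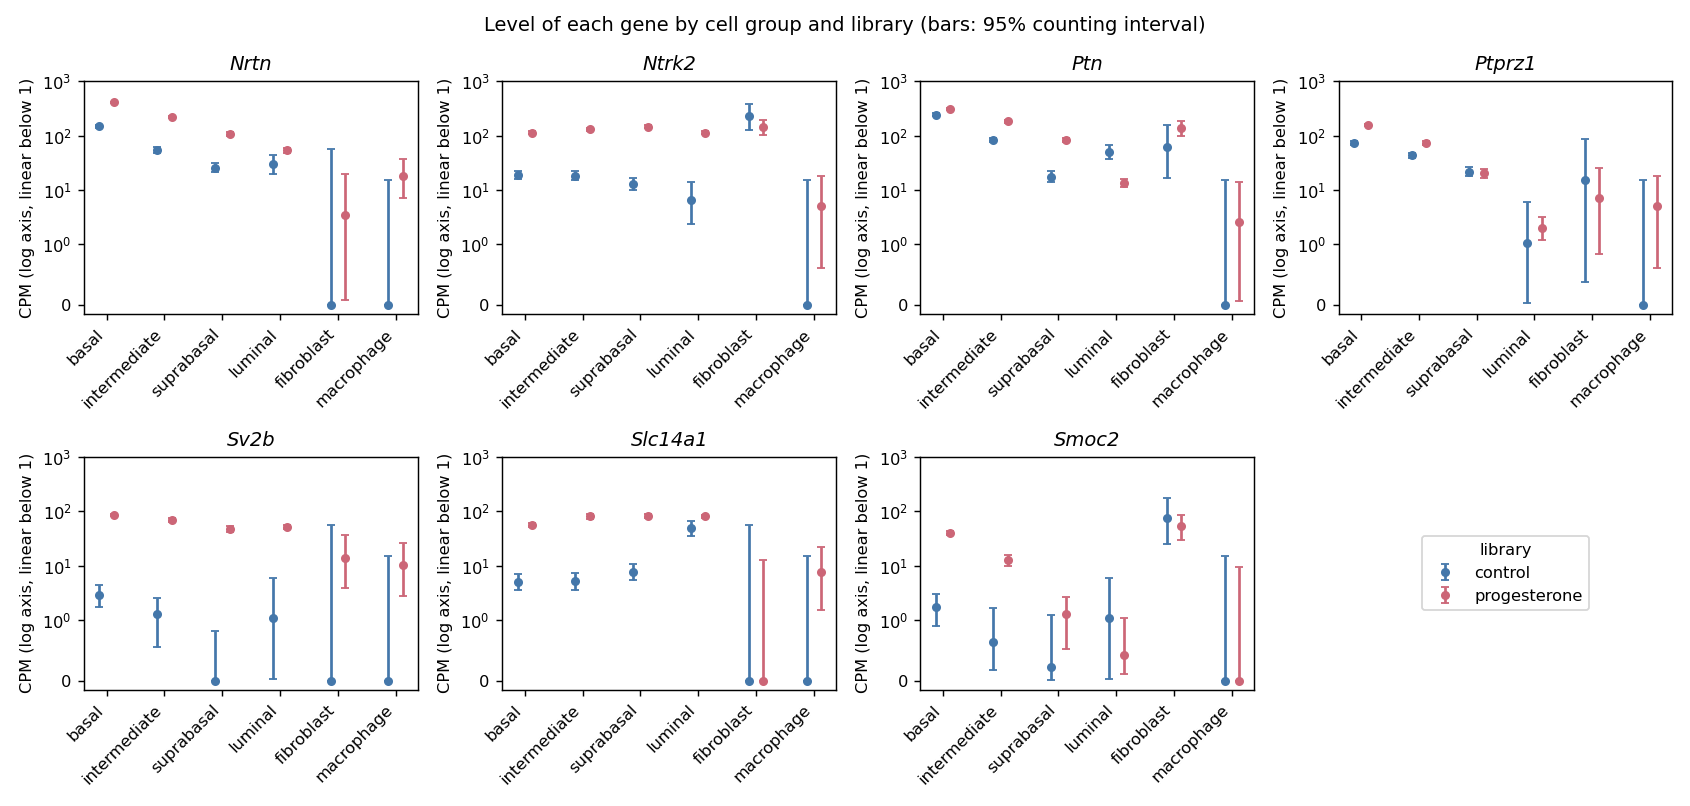
Level of each gene in CPM (vertical axis, logarithmic above 1 and linear below) in 6 groups of cells (horizontal axis) of the control (blue) and progesterone (red) library; points are sums over the group and bars 95% counting intervals. Nrtn, Ptn, Ptprz1 and Smoc2 step down from basal to suprabasal cells with progesterone, while Ntrk2 and Slc14a1 are at 113.5 and 56.0 CPM in basal and at 145 and 82.7 CPM in suprabasal cells.

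A call was made where 2 sums differed at least 2-fold with the interval of their ratio outside 1, among genes with at least 20 UMIs in the pair. In basal cells 6 of the 7 genes were called higher with progesterone and none lower, Ptn being the exception, in a layer where 9.68% of 12124 genes were called higher and 7.97% lower. That contrast helped to choose the genes. The median log2 ratio of the 7 was 2.57, against 0.03 over all genes tested. In basal cells with no cycling UMI 5 of 7 were called higher (background 7.06%), without Ptn and Ptprz1. Intermediate cells gave 6 of 7 (background 9.92%), without Ptprz1, and suprabasal cells 5 of 6 tested (background 8.31%). Luminal cells gave 2 of 6, Ntrk2 and Sv2b, where 11% of genes were called higher, and 1 lower, Ptn, where 6.55% were.

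**Figure D2:**
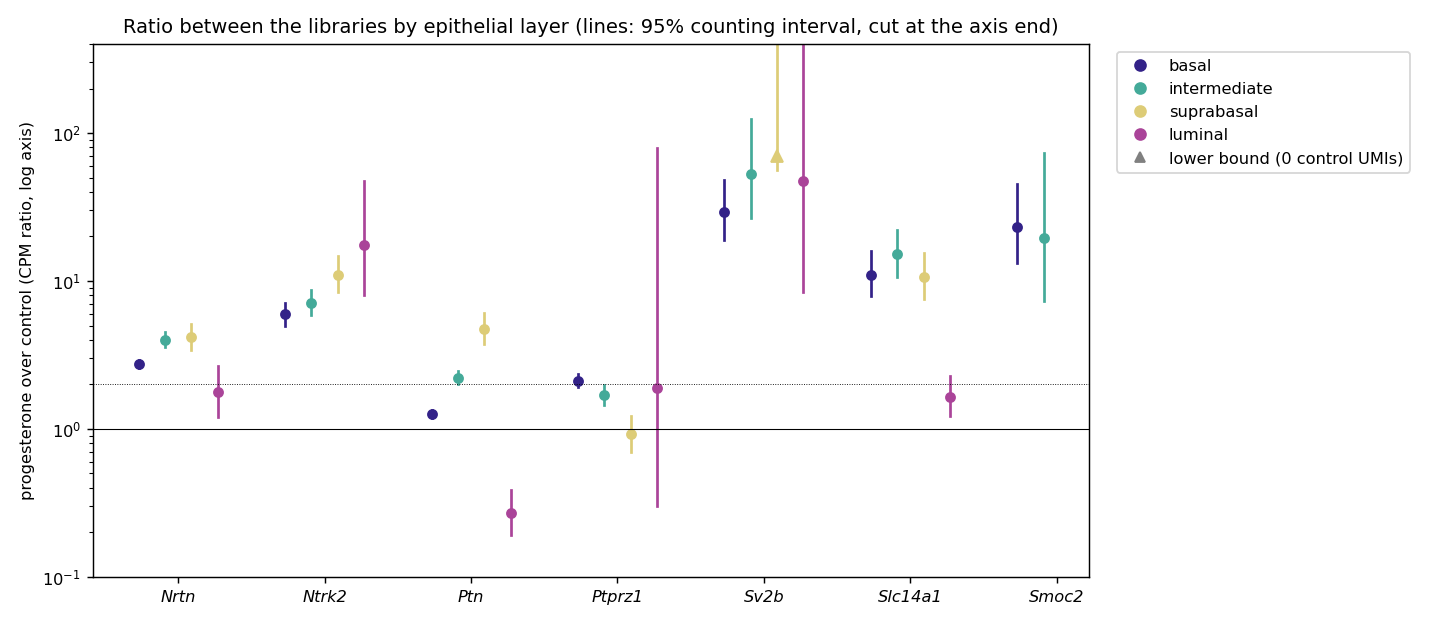
Progesterone over control ratio of CPM (vertical axis, logarithmic) for each gene (horizontal axis) in 4 epithelial layers (colours); lines are 95% counting intervals cut at the end of the axis, the triangle is a lower bound against 0 control UMIs, the solid line marks 1 and the dotted line 2. Pairs with under 20 UMIs, Smoc2 in suprabasal and luminal cells, are left out. Ptn runs from 0.271 in luminal to 4.745 in suprabasal cells, and Ntrk2 is higher in all 4 layers.

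Set against suprabasal cells of the same library, 4 of the 7 genes (Nrtn, Ptn, Ptprz1 and Smoc2) were called higher in basal cells with progesterone, where 8.77% of 12046 genes were, and none lower. In the control 4 of 6 tested were (Nrtn, Ptn, Ptprz1 and Sv2b), where 11.7% of genes were. Against luminal cells with progesterone the count was 4 of 7 (background 12.1%), the same 4 as against suprabasal cells. In the control it was 4 of 6 tested (Nrtn, Ptn, Ptprz1 and Ntrk2, background 15.3%), and Slc14a1 was called lower, where 15.9% of genes were. Nrtn, Ptn and Ptprz1 were thus called higher in basal than in suprabasal cells in both libraries, Smoc2 with progesterone, where its control pair had too few UMIs, and Sv2b in the control, where 0 suprabasal UMIs give a ratio of at least 4.33. For Sv2b with progesterone the call depends on how layers are drawn: the log2 ratio was 0.86 by the UMI limits, 1.86 by clusters of cells and 1.10 by suprabasal UMIs per 10000. Among basal cells of the progesterone library with no cycling UMI, those 482 with a UMI of Igfbp5, a secreted IGF-binding protein, held 1.59-fold (1.3 to 1.933) the Smoc2 and 0.651-fold (0.5151 to 0.8149) the Slc14a1 of the 2296 without, and none of the 7 genes was called higher (background 0.831%). In the control the same split called Ptprz1 higher, at 2.152 (1.45 to 3.10) from 33 and 255 UMIs, and no other of the 7 (background 1.96%).

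A finer split of the keratinocytes that are not luminal, by the same suprabasal share that defines the layers, showed the same order. It is therefore not a separate check of the layers. With progesterone, cells with a suprabasal share under 2% held 429 CPM of Nrtn and those between 60 and 100% held 54.55 CPM. Over the same range Ptn went from 310 to 27.3 CPM and Ptprz1 from 168 CPM to 0 UMIs, the latter in 64 cells that allow up to 8.38 CPM. Smoc2 was at 43.2 CPM in the first bin, 19.1 CPM at 5 to 10% and 1.16 CPM at 20 to 40%. Ntrk2 took the other course, from 109.5 CPM in the first bin to 159 CPM (140 to 180) at 40 to 60%, and then 100 CPM (72.7 to 134) in the 64 cells of the last bin. Slc14a1 peaked in the middle, at 55.1 CPM in the first bin, 92.5 CPM (82.7 to 103) at 20 to 40% and 52.3 CPM (33.1 to 78.4) in the last. In the control, Ntrk2 stayed between 13.9 and 19.9 CPM up to a share of 60%, with intervals that all overlap, and was at 3.74 CPM (0.771 to 10.9) in the last bin, from 3 UMIs.

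**Figure D3:**
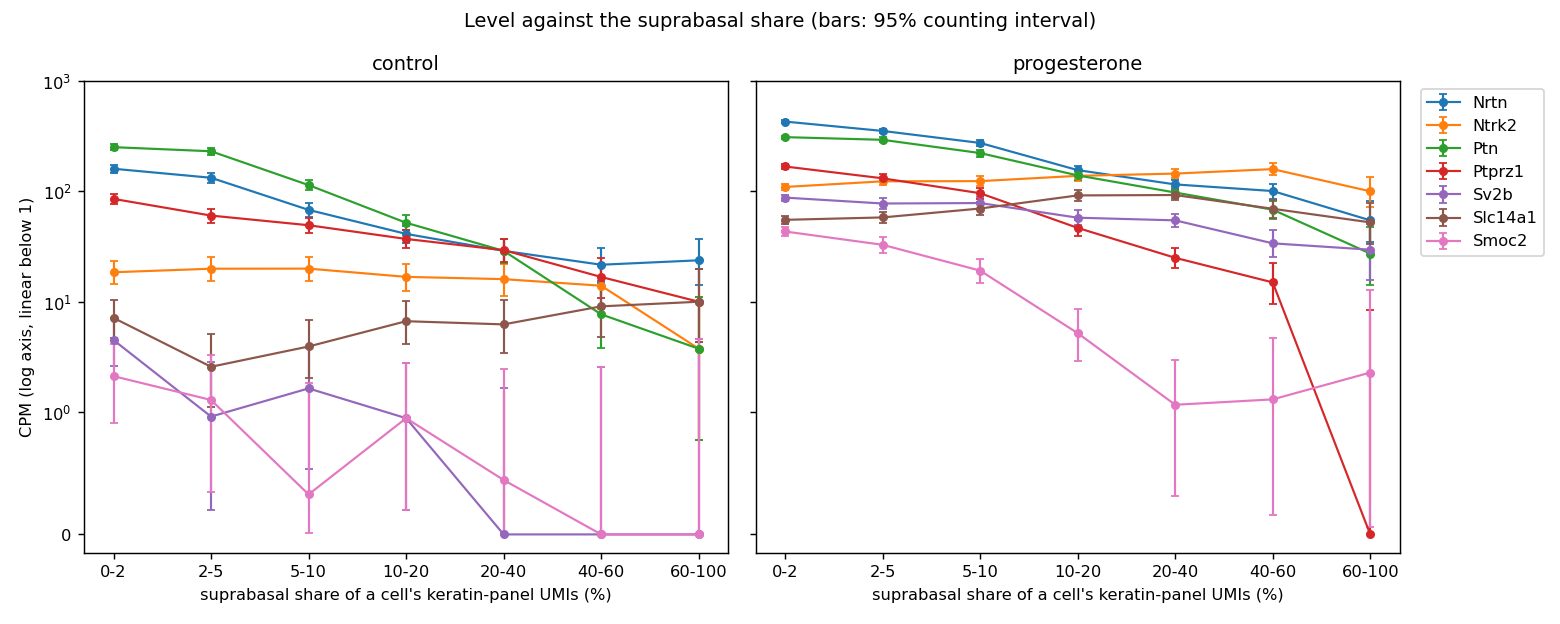
Level in CPM (vertical axis, logarithmic above 1 and linear below) against the suprabasal share of a cell's keratin-panel UMIs in 7 bins (horizontal axis, %), for the control (left) and the progesterone library (right); lines join the values of 1 gene and bars are 95% counting intervals. Nrtn, Ptn, Ptprz1 and Smoc2 are lower at 20 to 40% than in the first bin with progesterone, and Ntrk2 and Slc14a1 are higher there.

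Co-occurrence was counted in keratinocytes thinned to 2000 UMIs, as the number of cells with a UMI of both genes over the number that the product of their shares gives, for pairs where that product is at least 5 cells. In 5112 progesterone keratinocytes 11 of 21 pairs had an interval above 1 and 2 below. For pairs of 1 of the 7 genes with any other gene, 4.93% were above and 4.45% below. Those pairs needed an expected 5 cells only, while the 21 had 34.3 to 644 expected cells. More expected cells give narrower intervals, so this background, here and below, is not matched for abundance. The part of abundance in the difference was not tested. Ptprz1 with Smoc2 gave the largest factor, 1.90 (1.54 to 2.31, 98 cells), followed by Nrtn with Smoc2 at 1.59 (1.36 to 1.84, 173 cells). Ptprz1 with Slc14a1 at 0.690 (0.549 to 0.856, 82 cells) and Slc14a1 with Smoc2 at 0.6125 (0.379 to 0.936, 21 cells) were the pairs with an interval below 1. The ligand Ptn and its receptor gene Ptprz1 were in the same cell 432 times where 305 were given by their shares, a factor of 1.42 (1.28 to 1.56).

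Within the basal layer alone, which holds fewer cells, most pairs had an interval that held 1, and the median factor of the 21 was 1.06 against 1.22 in all keratinocytes. For pairs with other genes the basal median was 1.01. These intervals take the joint count as Poisson, which for common genes is wider than the spread that fixed shares allow. An interval that holds 1 therefore does not show that the 2 genes were detected independently. Of the same 21 pairs in 2873 progesterone basal cells, 1 kept an interval above 1, Ntrk2 with Sv2b at 1.47 (1.23 to 1.75, 127 cells). Another 1 kept an interval below 1, Ptprz1 with Slc14a1 at 0.766 (0.583 to 0.988, 59 cells). Of pairs with other genes, 1.53% had an interval above and 0.947% below. Ptn with Ptprz1 fell to 1.08 (0.972 to 1.196) and Nrtn with Ptn to 1.01 (0.934 to 1.09). In basal cells with no cycling UMI, Ntrk2 with Sv2b was at 1.43 (1.16 to 1.75) and Nrtn with Sv2b at 1.197 (1.047 to 1.362), 2 of 21 against a background of 1.4%. Each set of cells was thinned by its own random draw, and the intervals leave out the variation between draws. Cells with 3 or more of the 7 genes made up 18.7% of progesterone keratinocytes, where the product of the shares gives 14.4%, and 24.4% of basal cells, where it gives 23.35%. No cell held all 7 after thinning.

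In the control, 7 pairs were frequent enough in 2758 keratinocytes, and 3 had an interval above 1, the pairs among Nrtn, Ptn and Ptprz1 (background 6.36%). Nrtn with Ptn stood at 1.98 (1.66 to 2.34, 133 cells), Nrtn with Ptprz1 at 1.496 (1.13 to 1.94) and Ptn with Ptprz1 at 1.39 (1.10 to 1.74). The same 3 kept an interval above 1 in 1127 basal cells, at 1.29, 1.45 and 1.40, of 6 pairs counted (background 1.79%). In 646 basal cells with no cycling UMI none of 6 had an interval above 1 (background 1.32%). There Ptn with Ptprz1 was at 1.03 (0.661 to 1.53) and Nrtn with Ptprz1 at 1.05 (0.635 to 1.65). Nrtn with Ptn kept nearly its factor, at 1.285 (0.905 to 1.77), from 37 cells in place of 103, so its interval was wider.

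**Figure D4:**
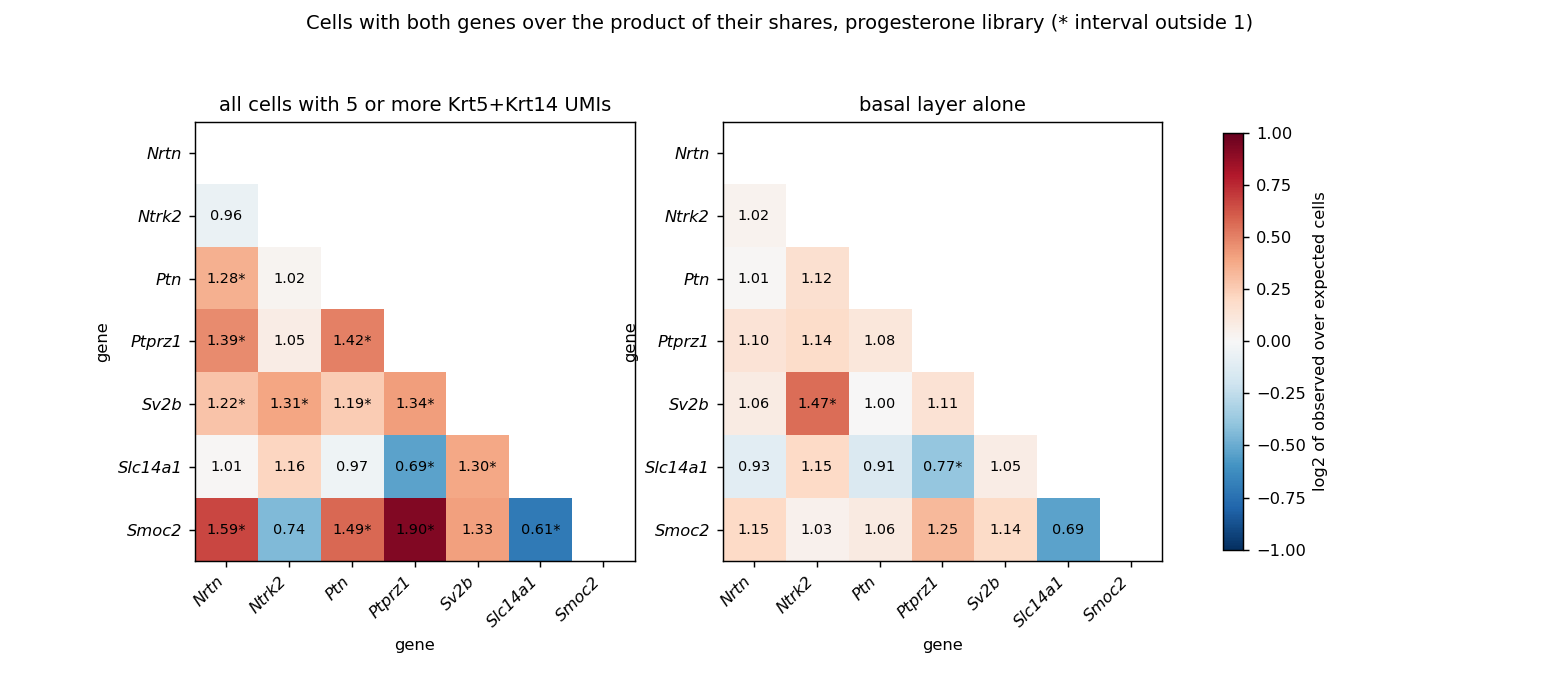
Observed over expected number of cells with both genes (number in each square, colour as log2) for every pair of the 7 genes in the progesterone library, in all keratinocytes (left) and in the basal layer (right), after thinning to 2000 UMIs; a star marks a 95% counting interval outside 1. Of the pairs, 13 carry a star on the left and 2 on the right.

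The partners of these ligands and receptors were looked up in fixed lists. In the GDNF family (10 genes), Gfra2 and Ret, the receptor genes named above for neurturin, gave next to no UMIs in keratinocytes. There was 1 Gfra2 UMI in control and 0 in progesterone keratinocytes, and 1 and 2 Ret UMIs. Gfra1, another co-receptor gene of this family, had 127 UMIs in progesterone luminal cells (13.7 CPM) and 0 in control luminal and in progesterone basal cells. It was at least 68.3-fold higher in luminal than in basal cells of the progesterone library. Ncam1, an adhesion molecule that also binds GDNF, was at 28.1 and 37.15 CPM in basal and at 126 and 445 CPM in luminal cells. Without Nrtn, 2 genes of that list could be tested between the libraries in basal cells and 0 were called (background 9.68% and 7.97%).

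Of the neurotrophin list (10 genes), 8 were tested in basal cells, with 4 called higher with progesterone and 1 lower, and without Ntrk2 the count was 3 higher and 1 lower of 7 (background 9.68% higher and 7.97% lower). Ntf5, which encodes the TrkB ligand neurotrophin-4, was at 25.45 CPM (176 UMIs) in control and 25.9 CPM (388 UMIs) in progesterone basal cells. Bdnf, the other TrkB ligand gene, had 5 and 38 UMIs, 3.505-fold (1.38 to 11.4) higher in CPM, but 1.47-fold (0.554 to 4.89) in cells with no cycling UMI. Ntf3, which encodes neurotrophin-3, had 12 and 145 UMIs (5.57-fold, 3.095 to 11.04) and was 13.1-fold (5.02 to 48.8) higher in basal than in suprabasal cells with progesterone. Ntrk3, the receptor of neurotrophin-3, had 0 UMIs in control and 83 in progesterone basal cells, at least 12.8-fold higher, and 2 in suprabasal cells. Ngfr, the shared p75 receptor, was at 22.7 and 27.4 CPM (1.21-fold, 1.00 to 1.46), and Sorcs2, a partner of p75, was lower, from 28.35 to 12.9 CPM (ratio 0.457, 0.372 to 0.560). Sort1, the sortilin gene, was a luminal gene in comparison, at 82.0 CPM in luminal and 2.94 CPM in basal cells with progesterone.

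In the pleiotrophin and midkine list (18 genes), 11 were tested in basal cells, where Ptprz1 was called higher and Sdc3, a syndecan, lower (0.492, 0.321 to 0.756), so without Ptn and Ptprz1 the count was 0 higher and 1 lower of 9 (background 9.68% and 7.97%). Midkine (Mdk), the relative of pleiotrophin, was low, at 4.19 and 5.203 CPM in basal cells, and in fibroblasts it was at 153 and 129.5 CPM. Among other binding partners, Sdc1 was at 245 and 178 CPM, Sdc4 at 159.5 and 135 CPM and Ncl, which encodes nucleolin, at 1297 and 928.5 CPM in basal cells, with ratios of 0.726, 0.845 and 0.716. Another syndecan gene, Sdc2, had the other direction, at 12.6 and 17.7 CPM (1.41-fold, 1.103 to 1.818). The ratios of the receptor gene Lrp1 (1.13, 0.956 to 1.34), the integrin gene Itgav (1.10, 0.959 to 1.265) and the adhesion gene L1cam (0.879, 0.722 to 1.07) had intervals that held 1. None of these was called. Alk, a kinase receptor of pleiotrophin, gave 1 UMI in control and 0 in progesterone keratinocytes. Cntn1, whose product binds PTPRZ1 on neighbouring cells, had 0 and 9 UMIs in basal and 11 and 865 in luminal cells, so with progesterone it was 155-fold higher (81.3 to 340) in luminal than in basal cells.

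The vesicle release list (21 genes) had 14 tested in basal cells, with Sv2b called higher and Syt8, a synaptotagmin, lower (0.326, 0.213 to 0.495), so without Sv2b the count was 0 higher and 1 lower of 13 (background 9.68% and 7.97%). Of the other genes known from synapses, Syt1, Snap25, Syp and Syn1 had 0 to 6 UMIs in the keratinocytes of either library, and the paralogs Sv2a and Sv2c at most 15. The general secretion genes were present and none was called, with basal ratios of 0.811 for Vamp8, 0.874 for Vamp3, 1.012 for Sypl, 1.012 for Rab3d, 1.10 for Stx4a, 1.19 for Vamp2, 1.22 for Rab27b, 1.28 for Rab3a and 1.345 for Vamp1. Highest were Snap23 at 1.41 (1.085 to 1.86) and Stx3 at 1.47 (1.14 to 1.92), whose intervals were above 1. Rab27b and Rab3d were 6.72-fold and 4.735-fold higher in luminal than in basal cells with progesterone.

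In the list of urea and water transport (10 genes), 6 were tested in basal cells, with Slc14a1 and Aqp5 higher and 2 lower, or 1 higher and 2 lower of 5 without Slc14a1 (background 9.68% and 7.97%). Aqp5 was 4.36-fold higher (3.07 to 6.37), from 5.06 to 22.1 CPM, and Aqp4 was lower at 0.170 (0.0604 to 0.422), from 19 and 7 UMIs, both genes encoding water channels. Arg2, an arginase gene, was also lower, from 17 and 4 UMIs (0.108, 0.0266 to 0.333). Aqp3, another water channel gene, was at 54.2 and 38.3 CPM (0.706, 0.619 to 0.806, not called). Slc14a2, the other urea transporter gene, had 0 UMIs in keratinocytes. Arg1, which encodes the arginase that releases urea, was at 18.1 and 9.205 CPM in basal cells (0.509, not called) and at 739 CPM in control and 31.5 CPM in progesterone suprabasal cells. Of the SPARC family (8 genes), 4 were tested, with Smoc2 and Sparcl1 higher and Fstl1 lower, or 1 higher and 1 lower of 3 without Smoc2 (background 9.68% and 7.97%). Sparc itself was a basal gene in both libraries, at 236 and 129 CPM in basal against 6.46 and 6.26 CPM in suprabasal cells, and it was lower with progesterone (ratio 0.545, 0.51 to 0.5825, not called). Sparcl1 had 4 and 28 UMIs in basal cells (3.23-fold, 1.13 to 12.7), and the ratio of Fstl1 was 0.376 (0.260 to 0.5405).

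Other cell types were looked for by their markers. Of 6 Schwann cell and glia markers, Sox10 and Cdh19 had 0 UMIs in both libraries and Fabp7 0 in keratinocytes. Chga, Atoh1, Mlana and Tyrp1, which mark neuroendocrine cells, Merkel cells and melanocytes, were at 0. The summed neuron and neuroendocrine list of 6 genes was at 27.2 and 0.400 CPM in basal cells, and it rested on Tubb3, a neuronal tubulin, in the control. The Merkel list of 3 genes was at 2.31 and 8.07 CPM and the melanocyte list of 4 genes at 1.45 and 0.667 CPM. No cell held 3 markers of any of these 4 classes. The neutrophil list was at 658 and 150 CPM in basal cells, the macrophage list at 32.5 and 63.2 CPM, the fibroblast list at 5.93 and 20.8 CPM (4 of 6 genes detected in the control, Lum and Pdgfra at 0) and the hemoglobin list at 1523 and 8122 CPM, and their part in the results was not tested. Without the cells that held 3 or more markers of a non-epithelial class, the same 6 genes were called higher with progesterone in basal cells.

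Genes with the most alike pattern were ranked by Pearson r of log2(CPM + 10) over 15 groups of cells, among 10621 genes. The groups share 2 libraries and their depth, so r is a description. Closest to Nrtn were Ces2e (0.949), Col17a1 (0.933) and Tbx2 (0.929), and closest to Ptprz1 were Ccdc3 (0.959), Bcam (0.921) and Moxd1 (0.910). For Ptn they were Tgfb2 (0.920), Fjx1 (0.913) and Greb1 (0.891), for Ntrk2 Rev3l (0.914), Dbt (0.911) and Fpgs (0.907), and for Sv2b Etv1 (0.920), Eif3j2 (0.909) and Irx1 (0.887). Slc14a1 was closest to Id4 (0.960), Aldh3a1 (0.943) and Bcat1 (0.928), and Smoc2 to Nbl1 (0.960) and Igfbp5 (0.939). Among the 7 genes themselves the highest r was 0.801, between Sv2b and Slc14a1, and Ptn with Ptprz1 stood at 0.758.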

How the data were processed

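Cells of the mouse cervix were measured in 2 10x Genomics 3′ libraries, control and progesterone, and the deposited values are whole-number UMI counts per gene and cell that the authors made with Cell Ranger 3.0.2 on mm10, per the submitters' processing notes and the file headers. Cells under 200 genes or over 20% mitochondrial UMIs were left out, and the cells with the highest Scrublet doublet scores were removed (181 and 680). UMIs were summed per layer and library and divided by the group's total to give CPM, with exact Poisson 95% intervals. Ratios carry exact conditional binomial intervals, and 0 UMIs were compared at a floor of 3. A ratio was counted at 2-fold or more with its interval outside 1, among genes with at least 20 UMIs. With 1 library per group no test and no p-value was possible. Shares and co-occurrence were taken after thinning to 2000 UMIs per cell, with exact (Clopper-Pearson) intervals for shares and Poisson intervals for the cells with both genes. UMIs from 1 library are not replicates, so all intervals cover counting error only.

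The 7 genes and the gene lists were chosen with earlier results of these data known, and the layer limits were set after seeing the cells. From each list, genes with at least 100 UMIs in keratinocytes were to be named, and the others named here (such as Gfra1, Gfra2, Ret, Alk, Arg2 and Sparcl1) were chosen after their values were seen. For each of the 7 genes the 3 with the highest r were named, apart from a gene that is not reported here. RefSeq promoters (GRCm38.p6) were taken by symbol and are given for 5 of the 7 genes. Slc14a1 was left out of the motif search beforehand, so its windows are not reported here. Python 3.11.15, numpy 2.4.6, scipy 1.17.1 and scanpy 1.11.5 were used, and the scripts were tested on simulated data. Alternatives changed doublet removal, cell filters, the keratin limits, the definition of layers, the scaling and the thinning.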

Additional observations from a re-analysis of the deposited data

Results flagged for a closer look

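Ptn moved in opposite directions between the libraries in different layers. Its progesterone over control ratio of CPM was 0.2712 in luminal cells, from 125 and 46 UMIs, against 1.26 in basal, 2.22 in intermediate and 4.745 in suprabasal cells. The difference between the layers was not tested, since each library is 1 pool of mice. The control value rests on 210 luminal cells, of which 15 had a Ptn UMI, and the progesterone value on 1680, of which 72 had one. Neutrophil markers summed to 9333 CPM in the control and 553.5 CPM in the progesterone luminal cells, and suprabasal markers to 4068 and 1446 CPM. Of the neutrophil list, S100a9 alone gave 5120 of 8659 control and 3119 of 5145 progesterone UMIs. At least 3 of its markers were in 17 of 210 control and 3 of 1680 progesterone luminal cells. The sum is thus not a count of neutrophils, and the part of these markers was not tested.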

How the results depend on the processing

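Of 51 counts recomputed under the alternatives, 46 stayed within 1.5 times the reported count. Pairs with a co-occurrence interval above 1, 3 in the control and 11 with progesterone, became 1 and 1 in clusters of basal-like cells, 7 (background 24.3%) and 17 (background 34.9%) without thinning, and 1 with progesterone in the basal layer alone. Of 210 ratios 201 kept their direction and their call, 3 reversed, 4 lost the call and 2 gained it. The reversed ones were all basal over suprabasal log2 ratios of Slc14a1, at 0.96 with progesterone when layers were clusters of cells, and in the control at 0.35 when layers were cut by suprabasal UMIs per 10000 and at 0.0266 in cells with no cycling UMI. The last 2 alternatives were added after seeing the data, and the cause was not tested. The basal progesterone over control log2 ratio of Ptprz1 was 0.88 as a mean over cells, 0.91 with layers cut per 10000 UMIs and 0.96 without cycling cells, under 2-fold in each, so 5 genes were then called in place of 6. The other was the control basal over suprabasal log2 ratio of Smoc2, at 2.41 with a gate of 20 UMIs. This tally of ratios used fold and interval alone, and that pair was under the 20 UMIs that a call needed elsewhere. The gained ones were both basal over suprabasal log2 ratios of Sv2b with progesterone, at 1.86 with clusters of cells and 1.10 per 10000 UMIs. Clusters gave 377 suprabasal cells with progesterone, against 910 by the UMI limits, so they do not redraw the same layer. Levels of all 7 genes in CPM had to rise when mitochondrial, ribosomal protein and the 20 most abundant genes were left out, since only the total shrank. No paired analysis was possible because each group has 1 library, and no library could be left out for the same reason. Control values of Sv2b, Slc14a1 and Smoc2 rest on 12 to 35 UMIs in basal cells, which limits their ratios.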

Other observations

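Tubb3, a neuronal beta-tubulin gene, had 368 UMIs in control keratinocytes and 0 in the 5766 progesterone keratinocytes. Krt20, an intermediate filament gene of Merkel and other epithelial cells, had 168 and 20 UMIs, and Piezo2, a mechanically gated channel gene, 10 and 150. Aqp8 and Aqp9, both aquaporin genes, had 0 and 4 UMIs in control luminal cells and 697 and 584 with progesterone.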
